A study of Homo sapiens with 9 samples.

Results

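The genes described here encode enzymes that add or remove acetyl and methyl groups on histones, measured in PANC-1, a human cell line of epithelial type derived from a carcinoma of the pancreas. They were chosen by name: a probe set of the array had to carry 1 gene symbol that begins with KDM, KMT, HDAC, SIRT, SETD, NSD, PRMT or KAT followed by a digit, and for a gene with several probe sets the one with the highest mean over the arrays was used. This gave 60 of 14232 genes tested: 16 lysine methyltransferases (KMT, SETD and NSD), 12 lysine demethylases (KDM), 11 deacetylases (HDAC), 7 sirtuins (SIRT), 7 arginine methyltransferases (PRMT) and 7 acetyltransferases (KAT). A further 8 genes of these families, KAT14, KDM5B, KDM5C, KDM5D, KDM6B, NSD2, PRMT1 and SETD4, were on probe sets annotated to several genes and were not analysed here. There were 9 arrays, 3 biological replicates for each of 3 groups, with RNA taken 72 h after transfection. The miR-520f group was transfected with a miR-520f mimic at 20 nM, a short synthetic double-stranded RNA that acts as the microRNA it copies. The negative control cells (NC) received 20 nM of a negative control mimic, and the non-transfected cells (NT) received the transfection lipid (Lipofectamine RNAiMAX) alone, so all 3 groups had been exposed to that lipid. All values are log2 intensities after RMA, a procedure that corrects background, brings arrays to a common distribution and summarises each probe set.

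Histone acetyltransferases place acetyl groups on lysines of histone tails, which loosens the packing of chromatin and recruits proteins with bromodomains, and the zinc-dependent deacetylases and the NAD-dependent sirtuins take them off. Lysine methyltransferases with a SET domain and demethylases of the LSD1 and JmjC types set and clear methyl marks whose meaning depends on the residue: methylated H3K4 and H3K36 accompany active enhancers, promoters and gene bodies, while methylated H3K9, H3K27 and H4K20 accompany silent chromatin. Several of these families also act on other proteins, so that the family name does not give the substrate. In pancreatic carcinoma, genes of the KMT2 family and KDM6A are among the chromatin regulators found mutated.

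The sequence that separates the treated cells from their controls is the mature microRNA. A microRNA recognises messenger RNAs mainly through its seed, bases 2 to 8 from the 5′ end, which are in capitals below. The sequences are those of RefSeq on GRCh38.p14. miR-520f-3p lies on chromosome 19, at chr19:53682213-53682234 on the plus strand, and the labels do not say which arm the mimic carried. The other lines show the opposite arm and 3 relatives, in which the same 7 bases stand 1 position further from the 5′ end, so that their seeds differ from that of miR-520f-3p.
miR-520f-3p: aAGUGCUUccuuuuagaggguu
miR-520f-5p: cCUCUAAAgggaagcgcuuucu
miR-520c-3p: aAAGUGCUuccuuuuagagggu
miR-302a-3p: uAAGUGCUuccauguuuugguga
miR-373-3p: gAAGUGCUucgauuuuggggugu
Among the 2370 mature human microRNA names in the table, 0 others shared the seed of miR-520f-3p at bases 2 to 8, and 11 had it at bases 3 to 9. Target sites in messenger RNAs were not searched, since no transcript sequences were used here.

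The array medians lay between 4.22 and 4.34, and 3 arrays per group limit the precision of every value. Replicate 1 of the negative control stood farthest from its group (root mean square deviation 0.169, against 0.0698 to 0.131 on the other arrays), and results that rest on it are given with and without it. Of the epithelial markers, KRT8 averaged 11.39, 11.34 and 11.62 in miR-520f, negative control and non-transfected cells, and KRT18 averaged 9.15, 8.87 and 8.74. EPCAM (9.37, 7.69 and 7.80) and CDH1 (6.61, 5.46 and 5.54) were highest with miR-520f, KRT19 (8.16, 8.83 and 8.90) was lowest there, and KRT7, at 3.46, 3.50 and 3.46, was near the lower end of the scale. Defining markers of other cells were also near that end, with averages of 2.99, 3.05 and 3.08 for the leukocyte gene PTPRC, 3.14, 3.21 and 3.15 for the endothelial gene PECAM1 and 3.15, 3.26 and 3.18 for the acinar gene CPA1. COL1A1 (7.78, 7.58 and 8.17) and CD68 (7.35, 8.25 and 8.65), which were listed as markers of fibroblasts and of immune cells, were well up the scale. In RNA from whole cultures, fewer cells that express a gene and less of its RNA per cell cannot be told apart.

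The first question was which of these enzymes changed with miR-520f against both controls. Calls were made in a limma fit over all genes, at an adjusted p (Benjamini-Hochberg) under 0.05. Against both controls with the same sign, 17 of the 60 enzymes were called (28.3%), 14 higher and 3 lower with miR-520f, where 18.0% of all genes tested were called (9.37% higher and 8.61% lower). These enzymes lay high on the intensity scale, however, with a median level of 6.26 against 4.53 over all genes, and brighter genes were called more often. Of the 48 enzymes above the median level of all genes, 15 were called against both controls (31.2%), and 30.7% of all genes above that level were. The total number of enzymes called was therefore near the background for genes of such intensity. Among those 48, 12 rose and 3 fell, where 16.3% and 14.3% of the genes above the median level rose and fell.

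In the separate comparisons, 26 enzymes were called against the negative control (19 higher and 7 lower, where 28.1% of all genes were called, 15.4% higher and 12.6% lower) and 27 against non-transfected cells (20 higher and 7 lower, where 27.6% of all genes were called, 14.5% higher and 13.1% lower). Of the 48 enzymes above the median level, 24 were called in each comparison, where 47.3% and 46.6% of such genes were. The median log2 fold change over the 60 was 0.12 against the negative control and 0.10 against non-transfected cells, where it was -0.03 and -0.03 over all genes. The comparisons share the miR-520f arrays and are therefore not independent. All 17 enzymes called against both controls had 3 miR-520f arrays that lay outside the range of the 6 control arrays, as did 8 others, which makes 25 of 60 where 25.4% of all genes were so separated. Of the 25, 18 were above the controls (13.2% of all genes) and 7 below them (12.1%). These shares were not computed for the genes above the median level, which were called more often. Changes were small: 0 of the 17 reached a log2 fold change of 1 against both controls (245 of all genes did, 1.72%), and 5 reached 0.5 (8.76% of all genes), namely SETD3, KMT2D, SETD5, SIRT1 and KMT2A. Without negative control replicate 1, 19 enzymes were called against both controls. Without miR-520f replicate 3 there were 11, and the count against non-transfected cells was 17 without miR-520f replicate 1 and also 17 without replicate 3.

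**Figure D1:**
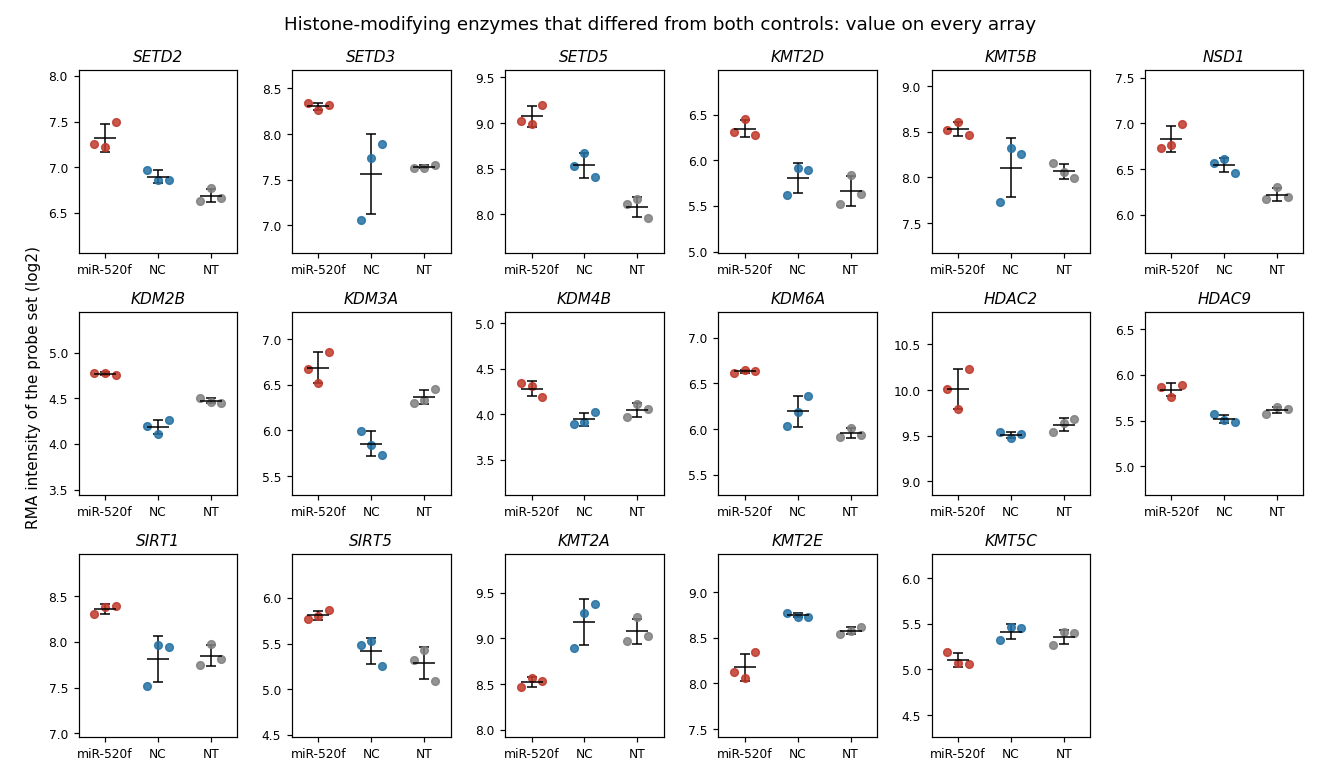
Probe set intensity (RMA log2, vertical axis) of the 17 enzymes called against both controls, with miR-520f arrays on the left, negative control (NC) in the middle and non-transfected (NT) on the right of each panel; points are arrays 1 to 3, and bars show the mean ± SD. Each axis spans 2 log2 units, and in every panel the 3 miR-520f arrays lie above all 6 control arrays, or below them in KMT2A, KMT2E and KMT5C.

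The lysine methyltransferases held 9 of the 17 calls. Of 16 members, 6 rose and 3 fell against both controls (56.2%, where 18.0% of all genes and 30.7% of those above the median level were called), and 12 of the 16 had miR-520f arrays that overlapped no control array (25.4% of all genes). All 16 lay above the median level, and the share of genes above it with such separation was not computed. SETD5, a SET-domain protein whose own methyltransferase activity is debated and which associates with corepressor complexes, was 1.99-fold higher than in non-transfected cells and 1.45-fold higher than in the negative control. Its values were 9.02, 8.99 and 9.20 on the miR-520f arrays, against 8.53, 8.68 and 8.41 on the negative control arrays and 8.12, 8.16 and 7.96 on the non-transfected arrays. The groups formed steps without overlap, highest with miR-520f and lowest in non-transfected cells. Its log2 fold changes were 0.54 (SE 0.09 and adjusted p by limma = 0.00125) against the negative control and 0.99 (SE 0.09 and adjusted p by limma = 1.77e-05) against non-transfected cells, and the difference of negative control minus non-transfected cells was 0.46 (limma adjusted p = 0.00744).

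Of the 3 writers of H3K36 methylation among the 60 enzymes, 2 rose against both controls and the other against non-transfected cells. SETD2, the enzyme that trimethylates H3K36 behind elongating RNA polymerase II, measured 7.25, 7.22 and 7.49 on the miR-520f arrays, against 6.98, 6.86 and 6.86 on the negative control arrays and 6.63, 6.77 and 6.66 on the non-transfected arrays. All miR-520f values exceeded all control values, and the log2 fold changes were 0.43 (SE 0.09 and adjusted p by limma = 0.00340) against the negative control and 0.63 (SE 0.09 and adjusted p by limma = 0.000260) against non-transfected cells. NSD1, which dimethylates H3K36, measured 6.73, 6.77 and 7.00 on the miR-520f arrays, against 6.57, 6.61 and 6.46 on the negative control arrays and 6.17, 6.30 and 6.19 on the non-transfected arrays. Here too the groups were stepped, with the lowest values in non-transfected cells. NSD1 rose by 0.29 against the negative control (limma adjusted p = 0.0296) and by 0.61 against non-transfected cells (limma adjusted p = 0.000310). The call against the negative control was lost without miR-520f replicate 3 (log2 fold change 0.20) and without negative control replicate 3 (0.24). It was also lost with unmoderated contrasts and with only the groups compared, and array weights gave 0.16 with the call kept. NSD3, a relative of NSD1, had 6.37, 6.36 and 6.29 on the miR-520f arrays, against 5.73, 6.02 and 6.24 on the negative control arrays and 5.64, 5.73 and 5.46 on the non-transfected arrays. It rose against non-transfected cells (0.73, limma adjusted p = 0.000823) and was not called against the negative control (0.34, limma adjusted p = 0.0544). The difference between these fold changes is that of the controls, 0.39, which was not called either (limma adjusted p = 0.0512). NSD3 was called against the negative control without negative control replicate 3 (0.46), without the dimmest quartile of genes (0.34) and with array weights (0.32). Without negative control replicate 1 its fold change against the negative control was 0.21 and was not called. It was called between the controls after a further quantile normalization (0.41), without the dimmest quartile (0.39), with median-centred arrays (0.43), with array weights (0.33) and without negative control replicate 1 (0.52).

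Writers of H3K4 methylation moved in both directions. KMT2D, which monomethylates H3K4 at enhancers, rose, with 6.31, 6.46 and 6.28 on the miR-520f arrays, against 5.62, 5.91 and 5.89 on the negative control arrays and 5.52, 5.84 and 5.63 on the non-transfected arrays. The lowest miR-520f array stood above the highest control array, and the log2 fold changes were 0.54 (SE 0.11 and adjusted p by limma = 0.00265) against the negative control and 0.68 (SE 0.11 and adjusted p by limma = 0.000585) against non-transfected cells. KMT2C, its close relative, had log2 fold changes of 0.14 and 0.44 against the negative control and non-transfected cells (the order of all paired values from here on) and was called against non-transfected cells only (limma adjusted p = 0.358 and 0.00468), with no call for the difference between the controls (0.30, limma adjusted p = 0.0547). KMT2A, also called MLL, the methyltransferase of HOX gene promoters, fell. It measured 8.47, 8.57 and 8.53 on the miR-520f arrays, against 8.90, 9.27 and 9.38 on the negative control arrays and 8.97, 9.24 and 9.03 on the non-transfected arrays, with no overlap between miR-520f and either control. Its log2 fold changes were -0.66 (SE 0.12 and adjusted p by limma = 0.00146) against the negative control and -0.56 (SE 0.12 and adjusted p by limma = 0.00445) against non-transfected cells. A second KMT2A probe set, near the lower end of the scale (3.93 to 4.37 over the 9 arrays), had -0.14 and -0.17, and averaging both probe sets gave -0.40 and -0.37, each still called. KMT2B was not called (0.12 and 0.13). SETD7, which monomethylates H3K4 and several non-histone proteins, was lower than in the negative control (-0.52, limma adjusted p = 0.000674) and not called against non-transfected cells (-0.20, limma adjusted p = 0.108), where it was called after a further quantile normalization (-0.24) and with array weights (-0.15).

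The set of writers of H4K20 methylation was divided as well. KMT5B, which with KMT5C sets the higher methylation states of H4K20, measured 8.52, 8.61 and 8.46 on the miR-520f arrays, against 7.74, 8.32 and 8.26 on the negative control arrays and 8.16, 8.06 and 7.99 on the non-transfected arrays. It rose by 0.42 and 0.46 (limma adjusted p = 0.0352 and 0.0236). Replicate 1 of the negative control set much of the first value: without it the log2 fold change against the negative control was 0.24. The call against the negative control was lost without any of the miR-520f replicates (0.38 to 0.46) or without non-transfected replicate 2 (0.42), and the call against non-transfected cells without miR-520f replicates 1 or 2 or non-transfected replicates 2 or 3 (0.42 to 0.47). Unmoderated contrasts lost both KMT5B calls, and a fit of only the groups compared lost the one against the negative control. KMT5C fell, with 5.20, 5.07 and 5.06 on the miR-520f arrays, against 5.32, 5.47 and 5.45 on the negative control arrays and 5.27, 5.41 and 5.40 on the non-transfected arrays. Its log2 fold changes were -0.31 and -0.25 (limma adjusted p = 0.0113 and 0.0314). The call against non-transfected cells was lost after a further quantile normalization (-0.23), with arrays centred on the median (-0.19) and without miR-520f replicates 2 or 3 or non-transfected replicates 2 or 3 (-0.23 to -0.22). KMT5A, which monomethylates H4K20, was not called (-0.08 and -0.12).

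Among the remaining SET-domain genes, KMT2E fell and SETD3 rose. KMT2E, a relative of the KMT2 enzymes without established methyltransferase activity, measured 8.13, 8.06 and 8.34 on the miR-520f arrays, against 8.77, 8.73 and 8.73 on the negative control arrays and 8.54, 8.58 and 8.61 on the non-transfected arrays, and its log2 fold changes were -0.57 (SE 0.08 and adjusted p by limma = 0.000295) against the negative control and -0.40 (SE 0.08 and adjusted p by limma = 0.00314) against non-transfected cells. SETD3, whose known substrate is a histidine of actin rather than a histone, was at 8.34, 8.26 and 8.32 on the miR-520f arrays, against 7.06, 7.73 and 7.89 on the negative control arrays and 7.63, 7.63 and 7.66 on the non-transfected arrays. The miR-520f and non-transfected arrays each lay within a narrow band, while the negative control arrays were spread widely. Its log2 fold changes were 0.74 and 0.67 (limma adjusted p = 0.00562 and 0.0109), and without negative control replicate 1 the first was 0.50, with the call kept. Both SETD3 calls were lost with unmoderated contrasts. SETD9, of unknown function, was lower than in the negative control (-0.32, limma adjusted p = 0.00432), and SETD6, which methylates the NF-kappaB subunit RELA, was not called (-0.15 and -0.03).

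The promoters of the members with the largest rise and fall against non-transfected cells are shown to set these opposite changes beside the sequence. They are the 250 bases upstream of the annotated start in RefSeq on GRCh38.p14, 5′ to 3′ on the strand of the gene, at chr3:9397365-9397614 (plus strand) for SETD5 and chr11:118436242-118436491 (plus strand) for KMT2A. Capitals mark the GC box GGGCGG and the CCAAT box CCAAT on either strand, which do not overlap in these windows.
SETD5: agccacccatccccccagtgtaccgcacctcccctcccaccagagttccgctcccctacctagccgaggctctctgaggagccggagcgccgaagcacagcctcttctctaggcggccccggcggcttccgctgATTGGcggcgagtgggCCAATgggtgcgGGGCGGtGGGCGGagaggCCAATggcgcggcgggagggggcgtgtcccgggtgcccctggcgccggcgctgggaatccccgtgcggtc
KMT2A: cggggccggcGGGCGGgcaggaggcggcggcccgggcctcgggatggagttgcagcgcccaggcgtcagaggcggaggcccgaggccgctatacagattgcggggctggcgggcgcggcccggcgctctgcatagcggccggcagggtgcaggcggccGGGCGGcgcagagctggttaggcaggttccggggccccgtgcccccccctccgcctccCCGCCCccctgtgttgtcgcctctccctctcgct
SETD5 had 2 GC boxes and 3 CCAAT boxes, and KMT2A had 3 GC boxes and 0 CCAAT boxes, at a G and C content of 73.2% and 78.4%. Promoters were matched for 55 of the 60 enzymes (not HDAC5, KAT6A, KAT8, NSD3 and SIRT7). A GC box was found in 34 of the 55 (61.8%), in 11 of the 14 that rose and in 2 of the 3 that fell, against 42.3% of the 27305 promoters of the table. A CCAAT box was found in 20 of the 55 (36.4%), in 7 of the 14 that rose and in 1 of the 3 that fell, against 33.0% of all promoters. The median G and C content was 65.6% in the 55 and 58.0% in all, and a motif match is a description of the sequence only.

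**Figure D2:**
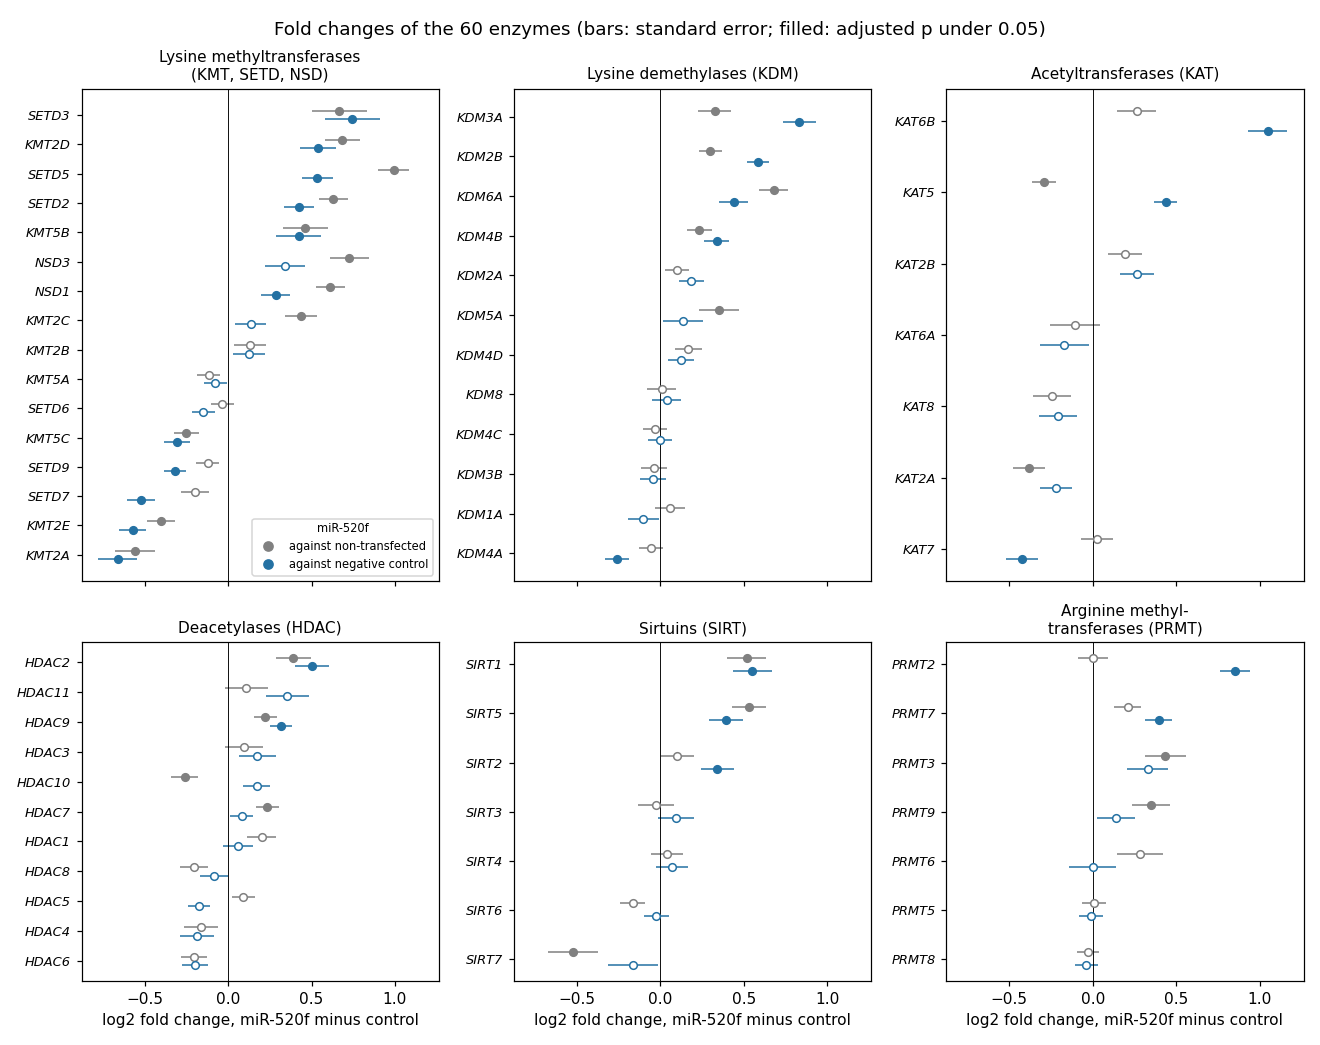
Log2 fold changes of miR-520f against the negative control (blue) and against non-transfected cells (grey) for the 60 enzymes by class (horizontal axis, log2; bars are standard errors of the limma fit; filled points had an adjusted p under 0.05). The lysine methyltransferases span -0.66 to 0.74 against the negative control, while the called demethylases lie to the right of 0 apart from KDM4A.

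Of the 12 demethylases, 4 rose and 0 fell against both controls (33.3%, where 18.0% of all genes and 30.7% of those above the median level were called). KDM6A, also called UTX, which removes methyl groups from H3K27 and is a subunit of the KMT2C and KMT2D complexes, measured 6.61, 6.65 and 6.64 on the miR-520f arrays, against 6.03, 6.19 and 6.36 on the negative control arrays and 5.91, 6.01 and 5.93 on the non-transfected arrays. Its miR-520f arrays lay within a narrow band above all controls, and the log2 fold changes were 0.44 (SE 0.09 and adjusted p by limma = 0.00254) against the negative control and 0.68 (SE 0.09 and adjusted p by limma = 0.000137) against non-transfected cells. KDM3A, an H3K9 demethylase induced by hypoxia, was 1.78-fold higher than in the negative control, with 6.68, 6.52 and 6.86 on the miR-520f arrays, against 5.99, 5.84 and 5.73 on the negative control arrays and 6.30, 6.34 and 6.45 on the non-transfected arrays. The negative control was the lowest group (-0.51 against non-transfected cells, limma adjusted p = 0.00599). The fold changes were 0.83 (SE 0.10 and adjusted p by limma = 9.57e-05) against the negative control and 0.32 (SE 0.10 and adjusted p by limma = 0.0325) against non-transfected cells. The call of KDM3A against non-transfected cells was lost after a further quantile normalization (0.29), without miR-520f replicates 1 or 3 and without non-transfected replicates 1 or 2 (0.24 to 0.33).

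KDM2B, which binds unmethylated CpG islands and recruits a Polycomb complex there, measured 4.78, 4.78 and 4.75 on the miR-520f arrays, against 4.20, 4.10 and 4.26 on the negative control arrays and 4.50, 4.46 and 4.45 on the non-transfected arrays. The 3 groups did not overlap, and the log2 fold changes were 0.58 (SE 0.07 and adjusted p by limma = 6.72e-05) against the negative control and 0.30 (SE 0.07 and adjusted p by limma = 0.00589) against non-transfected cells. KDM4B, a demethylase of H3K9 and H3K36, had 4.35, 4.31 and 4.19 on the miR-520f arrays, against 3.89, 3.92 and 4.03 on the negative control arrays and 3.97, 4.12 and 4.06 on the non-transfected arrays, and its log2 fold changes were 0.34 and 0.23 (limma adjusted p = 0.00583 and 0.0409). The call against non-transfected cells was lost without any of 6 arrays (miR-520f replicates 1 and 2, negative control replicate 2 and each non-transfected replicate; 0.19 to 0.27), with a replicate block (0.23) and without the dimmest quartile of genes (0.23).

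The other demethylases divided between single calls and none. KDM5A, which clears methyl groups from H3K4 and binds the retinoblastoma protein, was called against non-transfected cells only (0.14 and 0.35, limma adjusted p = 0.482 and 0.0474). That call was lost after a further quantile normalization (0.31), with array weights (0.12) and without any of 6 arrays (each miR-520f replicate, negative control replicate 2 and non-transfected replicates 1 and 3; 0.27 to 0.40). KDM4A, which acts on the same residues as KDM4B, was lower than in the negative control (-0.26, limma adjusted p = 0.0219) and not called against non-transfected cells (-0.06). KDM1A (LSD1), the flavin-dependent demethylase of the CoREST complex, was bright on all arrays, at 9.42 ± 0.16, 9.52 ± 0.09 and 9.37 ± 0.08 in miR-520f, negative control and non-transfected cells (SD, n = 3 each), and was not called. The 95% intervals of its log2 fold changes were -0.31 to 0.10 against the negative control and -0.15 to 0.26 against non-transfected cells. KDM2A, KDM3B, KDM4C, KDM4D and KDM8 were called in no comparison of the main fit. KDM4C (3.63, 3.63 and 3.66) and KDM4D (3.50, 3.38 and 3.34) had low intensities, where RMA compresses differences. KDM4D was called against non-transfected cells with arrays centred on the median, and against each control with array weights.

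In the main fit, no acetyltransferase or arginine methyltransferase was called against both controls with the same sign. Of all genes 18.0% were so called, and of those above the median level 30.7%. In these 14 genes the separate comparisons gave 3 acetyltransferases and 2 arginine methyltransferases called against the negative control, and 2 and 2 against non-transfected cells. Of 7 genes each, 2 are 28.6% and 3 are 42.9%, where 28.1% and 27.6% of all genes and 47.3% and 46.6% of those above the median level were called in these comparisons. KAT6B, the MYST-family acetyltransferase also called MORF, showed the largest change of all 60 enzymes against the negative control, 2.07-fold. Its values were 6.74, 6.85 and 6.95 on the miR-520f arrays, against 5.50, 5.92 and 5.97 on the negative control arrays and 6.55, 6.64 and 6.56 on the non-transfected arrays. The miR-520f arrays were above all control arrays, but most of the distance was to the low negative control. The log2 fold changes were 1.05 (SE 0.12 and adjusted p by limma = 5.46e-05) against the negative control and 0.26 (SE 0.12 and adjusted p by limma = 0.136) against non-transfected cells. Without negative control replicate 1 they were 0.90 and 0.26, and the second was then called (limma adjusted p = 0.0165). It was also called with only the groups compared (0.26) and with array weights (0.12). Under these alternatives KAT6B was therefore called against both controls.

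KAT5 (TIP60), the catalytic subunit of the NuA4 complex, was the only enzyme called with opposite signs against the controls, which held for 0.436% of all genes. It measured 6.08, 6.14 and 6.11 on the miR-520f arrays, against 5.59, 5.72 and 5.71 on the negative control arrays and 6.46, 6.34 and 6.40 on the non-transfected arrays. The miR-520f values lay between those of the controls without touching either, and the log2 fold changes were 0.44 (SE 0.07 and adjusted p by limma = 0.000650) against the negative control and -0.29 (SE 0.07 and adjusted p by limma = 0.00846) against non-transfected cells. KAT2A (GCN5), the acetyltransferase of the SAGA complex, was lower against non-transfected cells (-0.38, limma adjusted p = 0.0115) and not called against the negative control (-0.22), except after a further quantile normalization (-0.25). The KAT2A call was lost without miR-520f replicate 3 (-0.32) or non-transfected replicate 2 (-0.35). KAT7 (HBO1), which acetylates histone H3 at lysine 14, was lower than in the negative control (-0.42, limma adjusted p = 0.00613) and near the non-transfected level (0.03, 95% interval -0.18 to 0.24). KAT2B, KAT6A and KAT8 were not called.

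Of the arginine methyltransferases, PRMT2 stood out by its low negative control level, with 6.65, 6.68 and 6.55 on the miR-520f arrays, against 5.67, 5.92 and 5.72 on the negative control arrays and 6.75, 6.52 and 6.60 on the non-transfected arrays. The miR-520f and non-transfected arrays overlapped, and the log2 fold changes were 0.85 (limma adjusted p = 3.44e-05) against the negative control and 0.00 against non-transfected cells (95% interval -0.20 to 0.20). PRMT7, which only monomethylates arginine, was higher than in the negative control (0.40, limma adjusted p = 0.00345). It was not called against non-transfected cells (0.21), except after a further quantile normalization (0.22), with arrays centred on the median (0.27) and with array weights (0.24). PRMT3, a cytoplasmic enzyme whose main substrate is a ribosomal protein, was higher than in non-transfected cells (0.44, limma adjusted p = 0.0221), a call lost without any miR-520f replicate or non-transfected replicate 3 (0.36 to 0.45). Against the negative control PRMT3 was not called (0.33, limma adjusted p = 0.0749), except without negative control replicate 3 and with array weights. That value ran from 0.17 to 0.42 over the alternatives. PRMT9 was also higher than in non-transfected cells (0.35, limma adjusted p = 0.0399). PRMT5, the main enzyme of symmetric dimethylation, measured 9.18 ± 0.01, 9.19 ± 0.10 and 9.18 ± 0.06 in miR-520f, negative control and non-transfected cells (SD, n = 3 each), with 95% intervals of -0.17 to 0.15 and -0.15 to 0.17 for its log2 fold changes. PRMT8, a gene of neurons, was near the lower end of the scale (2.65, 2.69 and 2.68).

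Among the 11 zinc-dependent deacetylases, 2 rose and 0 fell against both controls (18.2%). Of all genes 18.0% were called, and of those above the median level 30.7%. HDAC2, a class I enzyme of the NuRD, SIN3 and CoREST complexes, measured 10.02, 9.79 and 10.23 on the miR-520f arrays, against 9.54, 9.47 and 9.52 on the negative control arrays and 9.54, 9.64 and 9.68 on the non-transfected arrays. The miR-520f arrays varied more than the controls but lay above all of them, and the log2 fold changes were 0.50 (SE 0.10 and adjusted p by limma = 0.00331) against the negative control and 0.39 (SE 0.10 and adjusted p by limma = 0.0140) against non-transfected cells. The call against non-transfected cells was lost without miR-520f replicate 3 (0.28) or non-transfected replicate 1 (0.35). HDAC1, its partner in those complexes, was not called (0.06 and 0.20, limma adjusted p = 0.693 and 0.130). It was called against non-transfected cells with arrays centred on the median (0.27) and with array weights. HDAC9, a class IIa enzyme that represses MEF2 factors, measured 5.87, 5.76 and 5.89 on the miR-520f arrays, against 5.57, 5.51 and 5.48 on the negative control arrays and 5.58, 5.65 and 5.63 on the non-transfected arrays. The differences of 0.32 and 0.22 passed (limma adjusted p = 0.00433 and 0.0301), and the call against non-transfected cells was lost without miR-520f replicates 1 or 3 or any non-transfected replicate (0.20 to 0.24) and with a replicate block (0.22).

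Other deacetylases were called against non-transfected cells alone or not at all. HDAC7, another class IIa enzyme, was higher (0.24, limma adjusted p = 0.0231). HDAC10, which deacetylates polyamines, was lower (-0.26, limma adjusted p = 0.0328), and its call was lost after a further quantile normalization or centring (-0.20 each) and without miR-520f replicates 1 or 3 or non-transfected replicates 1 or 2 (-0.26 to -0.22). HDAC6, a cytoplasmic deacetylase of tubulin, had its 3 miR-520f arrays (7.07, 7.14 and 6.96) below all control arrays (7.22, 7.26 and 7.27 in the negative control and 7.38, 7.22 and 7.18 in non-transfected cells), but its log2 fold changes of -0.20 and -0.20 did not pass (limma adjusted p = 0.0893 and 0.0814). A further quantile normalization called it against non-transfected cells (-0.24), and array weights called it against each control. HDAC3, HDAC8 and HDAC11 were not called, nor was HDAC4 (-0.19 and -0.16). HDAC4 was called against the negative control without negative control replicate 3 (-0.29), and against each control with array weights.

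Of the 7 sirtuins, 2 rose and 0 fell against both controls (28.6%, where 18.0% of all genes and 30.7% of those above the median level were called). SIRT1, the nuclear sirtuin that deacetylates histones, p53 and other factors, measured 8.30, 8.39 and 8.40 on the miR-520f arrays, against 7.52, 7.97 and 7.95 on the negative control arrays and 7.75, 7.98 and 7.81 on the non-transfected arrays. No control array reached the miR-520f values, and the log2 fold changes were 0.55 (SE 0.12 and adjusted p by limma = 0.00384) against the negative control and 0.52 (SE 0.12 and adjusted p by limma = 0.00587) against non-transfected cells. Without negative control replicate 1, the difference from the negative control was 0.41 and still called. SIRT5, a mitochondrial enzyme that removes succinyl and malonyl groups and is not mainly a histone deacetylase, measured 5.77, 5.80 and 5.87 on the miR-520f arrays, against 5.48, 5.52 and 5.25 on the negative control arrays and 5.33, 5.43 and 5.09 on the non-transfected arrays, with log2 fold changes of 0.39 (SE 0.10 and adjusted p by limma = 0.0129) against the negative control and 0.53 (SE 0.10 and adjusted p by limma = 0.00233) against non-transfected cells. SIRT7, a nucleolar sirtuin that deacetylates H3K18, had 8.18, 8.41 and 7.93 on the miR-520f arrays, against 8.67, 8.08 and 8.26 on the negative control arrays and 8.70, 8.66 and 8.75 on the non-transfected arrays. It was lower than in non-transfected cells (-0.53, limma adjusted p = 0.0217) while it overlapped the negative control (-0.16), and the call was lost without miR-520f replicates 1 or 3 or non-transfected replicates 1 or 3 (-0.53 to -0.40). SIRT2, a mostly cytoplasmic sirtuin, was higher than in the negative control (0.34, limma adjusted p = 0.0231), a call lost without any of the miR-520f replicates or negative control replicate 1 (0.23 to 0.35). SIRT3, SIRT4 and SIRT6 were not called.

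The negative control comparison asked how these genes differed between cells given the negative control mimic and cells given the lipid alone. Between negative control and non-transfected cells 11 of the 60 enzymes were called, 5 higher and 6 lower in the negative control, where 15.3% of all genes were called (7.00% higher and 8.28% lower). Above the median level it was 9 of 48 enzymes and 26.4% of all genes. The falls were in PRMT2 (-0.85, limma adjusted p = 0.000141), KAT6B (-0.79, 0.00118), KAT5 (-0.73, 9.02e-05), KDM3A (-0.51, 0.00599), HDAC10 (-0.43, 0.00443) and KDM2B (-0.28, 0.0149), with the limma adjusted p second in each pair. The largest rises were in SETD5 (0.46), KAT7 (0.45), NSD1 (0.33) and SETD7 (0.32), and the smallest was in HDAC5 (0.27), a class IIa deacetylase that was called in no miR-520f comparison. The calls of KDM2B (without negative control replicate 2 or non-transfected replicate 2; -0.29 to -0.24), NSD1 (without negative control replicates 1 or 2 or non-transfected replicates 1 or 3; 0.29 to 0.31) and SETD7 (without negative control replicate 2 or non-transfected replicates 2 or 3; 0.31 to 0.32) depended on single arrays. KAT7 was highest in the negative control, where the means of miR-520f, negative control and non-transfected cells were 7.83 ± 0.18, 8.26 ± 0.08 and 7.81 ± 0.09 (SD, n = 3 each). SETD7, also highest there, measured 6.95, 6.72 and 7.03 on the miR-520f arrays, against 7.44, 7.44 and 7.40 on the negative control arrays and 7.13, 7.09 and 7.09 on the non-transfected arrays. The fold changes of miR-520f against the negative control use these same negative control arrays. Of the 17 enzymes called against 1 control only, PRMT2, KAT6B, HDAC10, KAT7 and SETD7 also differed between the controls. For the other 12 no difference between the controls was called in the main fit. Of these 12, HDAC7, KMT2C, PRMT9, KDM4A and SETD9 were not followed by gene under the alternatives. Of the rest, KDM5A (0.34), SIRT7 (-0.53) and NSD3 (0.52) were called without negative control replicate 1. Array weights called NSD3, SIRT7 and PRMT3 among them, and NSD3 was also called under the other alternatives given above.

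**Figure D3:**
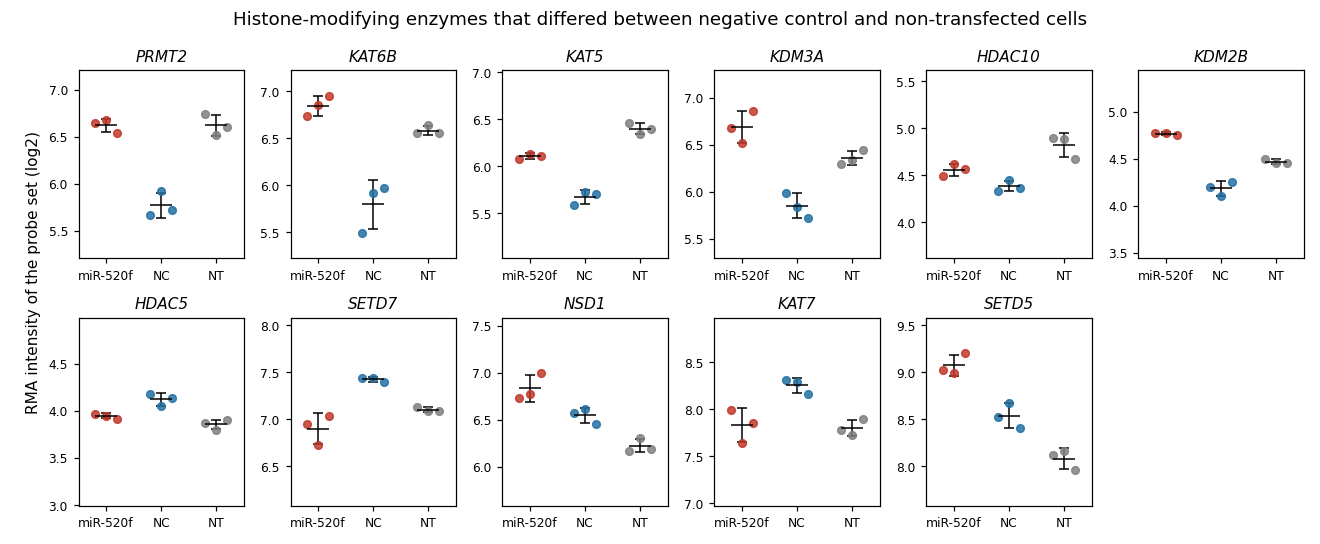
Probe set intensity (RMA log2, vertical axis) of the 11 enzymes called between negative control and non-transfected cells, with miR-520f, negative control (NC) and non-transfected (NT) arrays from left to right; points are arrays 1 to 3, and bars show the mean ± SD. In PRMT2, KAT6B, KAT5, KDM3A, HDAC10 and KDM2B the negative control arrays are the lowest of the 3 groups, in KAT7, SETD7 and HDAC5 the highest, and in SETD5 and NSD1 they lie between.

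Read by mark within the 60 enzymes, calls against both controls were found among writers and erasers (18.0% of all genes were called, 9.37% higher and 8.61% lower, and 30.7% above the median level). With so few enzymes a mark, the counts are a description only. For H3K36, 2 of 3 writers rose (SETD2 and NSD1) and so did 2 of 5 erasers (KDM2B and KDM4B). Of 5 writers of H3K4 methylation 1 rose (KMT2D) and 1 fell (KMT2A), while 1 of 3 erasers rose (KDM2B). KDM6A, the eraser of H3K27 methylation among the 60, rose. Of 6 erasers of H3K9 methylation 2 rose (KDM3A and KDM4B). These counts describe transcripts only, some enzymes stand under several marks, and enzymes with other names, such as SMYD2 for H3K36, are not in them.

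Other chromatin regulators that the name rule does not cover were examined from lists by function, with the same fit. Their shares of calls against both controls stand beside 18.0% of all genes and 30.7% of genes above the median level. Of 24 measured Polycomb subunits, 5 rose and 4 fell against both controls (37.5%). MTF2, an accessory subunit of the H3K27 methyltransferase complex, had log2 fold changes of 1.46 and 1.57, PCGF5 had -1.01 and -0.96 and PHC3 -0.72 and -0.78. The core subunits EED (0.13 and 0.17) and SUZ12 (-0.22 and 0.12) and the catalytic subunit EZH2 (-0.14 and 0.20) were not called. Of 27 subunits of deacetylase complexes 6 rose and 5 fell (40.7%), among them TBL1X of the NCoR complex (1.13 and 1.08), the HDAC-binding protein MIER1 (-1.23 and -1.04) and the CoREST subunit RCOR2 (0.99 and 0.61). Of 28 subunits of acetyltransferase complexes 2 rose and 3 fell, including ING5 (0.95 and 1.07) and MRGBP (-0.61 and -0.63). Their share of 17.9% was near that of all genes and below that of genes above the median level.

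Histone methyltransferases with other names gave 2 rises and 2 falls among 16 (25%, where 18.0% of all genes were called). SMYD2, which methylates H3K36 and p53, fell by more than any of the 60 enzymes against both controls (-0.91 and -1.75), and EHMT1 (GLP), an H3K9 methyltransferase, rose (0.70 and 0.53). Other acetyltransferases and coactivators gave 2 rises and 2 falls among 10 (40.0%), with a fall of CLOCK, the circadian factor (-1.14 against the negative control), and a rise of NAA60 (0.59 and 0.58). The other demethylases and JmjC proteins gave 3 rises and 0 falls among 10 (30.0%), including the H3K9 and H4K20 demethylase PHF8 (0.62 and 0.56) and JMJD6 (0.41 and 0.29). Of 11 subunits of H3K4 methylation complexes 2 rose and 2 fell (36.4%), with HCFC2 at -0.48 and -0.62 and NCOA6 at 0.51 and 0.37. Readers of acetylated or methylated lysine gave 4 rises and 0 falls among 25, led by the bromodomain proteins BRWD1 (1.08 and 1.09) and ZMYND8 (1.52 and 0.79). Their share of 16% was below the 18.0% of all genes and the 30.7% of genes above the median level. Of 6 epithelial markers on the same arrays, EPCAM (1.68 and 1.57) and CDH1 (1.15 and 1.07) rose and KRT19 (-0.68 and -0.75) fell against both controls. The 3 mesenchymal markers CD44 (-1.29 and -1.57), AXL (-2.04 and -1.40) and VIM (-0.24 and -0.23) fell, and the part of these markers in the changes of these enzymes was not tested.

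**Figure D4:**
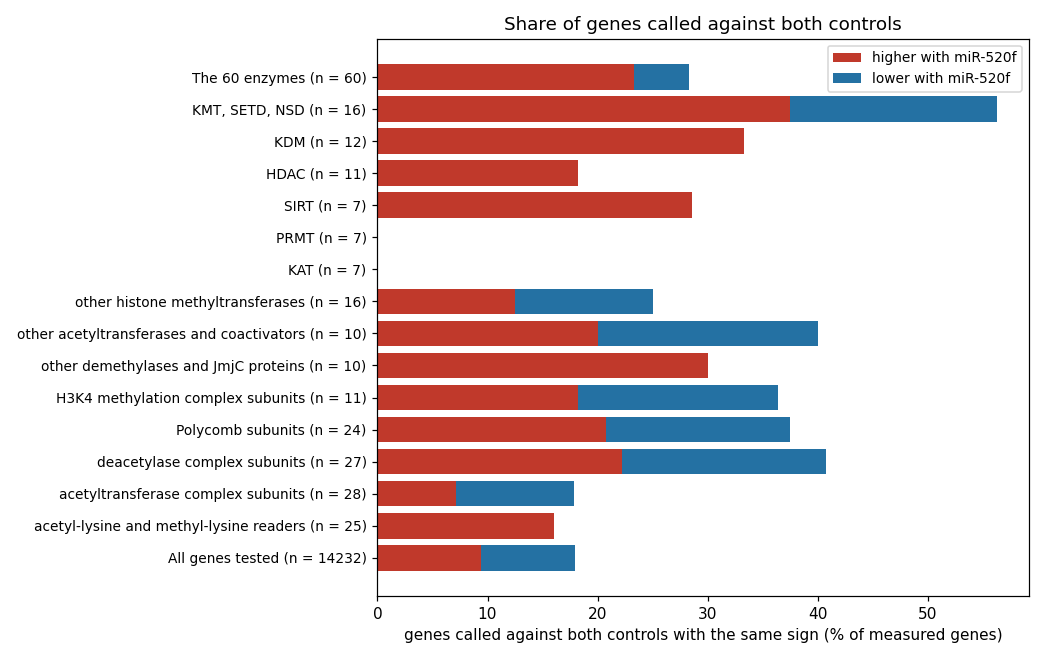
Share of measured genes called against both controls with the same sign (horizontal axis, percent), higher (red) or lower (blue) with miR-520f, for the 60 enzymes, their classes and lists of related chromatin regulators, with all genes tested at the bottom. The bar of the 60 enzymes reaches 28.3% against 18.0% for all genes, and the acetyltransferases and arginine methyltransferases are at 0. Not drawn are the shares above the median level of all genes, 31.2% of the enzymes and 30.7% of all genes there.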

How the data were processed

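RNA of 9 PANC-1 samples was hybridised to 1-colour Affymetrix arrays. The authors deposited RMA log2 values for 22011 probe sets, made with Partek 6.6, per the submitters' processing notes. The build named there was hg18, and its coordinates were not used here. The platform annotation gave 1 gene symbol for 14432 probe sets, several for 2408 and none for 5171, and 14404 of the single symbols were matched to RefSeq by gene identifier. The brightest probe set per gene was kept, which left 14232 genes, without a filter on low values. A linear model with 1 mean per group (6 residual degrees of freedom) was fitted to all genes with limma 3.58.1 in R 4.3.3, with moderated variances, 3 contrasts and Benjamini-Hochberg adjustment within each, at 0.05, and it was tested on simulated data. Errors are standard errors of the fit or SDs over 3 arrays, intervals are 95% intervals of the fit without adjustment, and 0 columns were left unused.

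The members and lists were chosen with earlier results of these data known. Members named with values were those called against both controls, of each class the 2 with the next largest smaller fold change, the 8 largest changes between the controls, and the brightest and dimmest 4; up to 3 genes were named per further list. Other members, and EED, SUZ12 and EZH2, were named after their values were seen. Replicates are biological per the labels, which do not describe separate cultures, and the p-values therefore reflect only array-to-array spread, which may be technical. Alternatives were a further quantile normalization, median centring, omission of the dimmest quartile, the mean of a gene's probe sets, only the groups compared, unmoderated contrasts, a fold minimum, array weights, a replicate block and omission of each array.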

Additional observations from a re-analysis of the deposited data

How the results depend on the processing

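Of the 17 enzymes called against both controls, 10 kept both calls without each array in turn (KDM2B, KDM6A, KMT2A, KMT2D, KMT2E, SETD2, SETD3, SETD5, SIRT1 and SIRT5), and 8 of these, without SETD3 and SIRT5, also did under every other alternative that set no fold minimum. Leaving out each array gave 11 to 19 enzymes called against both controls, 23 to 28 against the negative control, 17 to 30 against non-transfected cells and 8 to 14 between the controls. Unmoderated pairwise contrasts called 11 against both controls (13.6% of all genes), and a call was lost there for HDAC2, KDM3A, KMT5B, NSD1, SETD3 and SIRT5. Those contrasts also lost the calls against a single control of KDM5A, PRMT3, SIRT7, SIRT2 and HDAC10, and the calls of NSD1 and SETD7 between the controls. A minimum log2 fold change of 0.5 left 12 against the negative control, 11 against non-transfected cells, 5 against both (8.76% of all genes) and 4 between the controls. Array weights called 50 against non-transfected cells, 34 against both (34.0% of all genes were then called against both, and 18.0% without weights) and 28 between the controls, with weights from 0.189 to 12 that were estimated without convergence. Besides the enzymes given above, KDM1A, KAT7, PRMT2, SIRT2 and SIRT4 were then called against non-transfected cells. A replicate block gave 27 calls against the negative control, 25 against non-transfected cells, 15 against both (18.9% of all genes) and 11 between the controls. Deviations of same-numbered arrays from their group means correlated at -0.026 to 0.205, and 3 of 9 arrays correlated best with their own number in both other groups. The labels do not say what the replicate number marks, and the main fit did not use it. The cause of the differences between these alternatives was not tested. Over 114 fold changes of named enzymes and 1932 alternative values, 1794 kept their side of the threshold, 91 lost the call and 47 gained one. Of the calls, 0 reversed in direction. Fold changes that were not called could change sign: that of SETD3 between the controls ran from -0.24 to 0.17. The share of rises among the calls against both controls was 82.4%, 77.8% after a further quantile normalization, 88.2% with arrays centred on the median, 72.7% with unmoderated contrasts and 67.6% with array weights, against 52.1%, 50.4%, 59.1%, 49.1% and 52.4% over all genes. With 3 arrays per group, small changes of dim probe sets, which RMA compresses, may not be detectable.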
